A study of Homo sapiens with 5 samples.

Results

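The 9 genes described here encode S100 calcium-binding proteins (S100A2, S100A3, S100A4, S100A5, S100A6, S100A10, S100A11, S100A13 and S100A16). They were taken as all probe sets that the platform's probe-to-gene table assigns to these symbols, 12 of the 54675 on the array, and all 9 genes were among the 15024 genes tested. The list was chosen by the log2 signals of these same arrays, S100A4 having one of the highest differences between LM2 and SN12C, so the values of the 9 genes are a description and no test is read from them. The study profiled 3 related renal cell carcinoma lines on 5 Affymetrix arrays. SN12C is the parental line, labelled non-metastatic (2 arrays, biological replicates 1 and 2), LM1 is the line of lung-metastatic generation 1 (1 array) and LM2 the line of lung-metastatic generation 2 (2 arrays, biological replicates 1 and 2). No treatment or genetic change is given in the labels, and the study set the lines side by side to find expression differences that accompany rising metastatic activity. How LM1 and LM2 were derived, and whether replicates were separate cultures beyond the word biological, is not stated, so the errors below measure the spread between these arrays.

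S100 proteins are small proteins with a pair of EF-hand loops that bind calcium. They work mostly as dimers which open on calcium binding and then dock onto partner proteins such as annexins, non-muscle myosin or p53, and several of them are also released from cells and act on surface receptors. Most of the human family lies in a cluster on chromosome 1 at 1q21. S100A4, also called metastasin, is known for promoting cell motility and metastasis in tumour models, and it is also used as a marker of fibroblasts and of mesenchymal change in the kidney.

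In the gene order of assembly GRCh38.p14, S100A10 and S100A11 come first, and S100A6, S100A5, S100A4, S100A3, S100A2, S100A16 and S100A13 follow on the far side of a block of skin barrier genes. S100A4 thus lies between S100A5 and S100A3. The 250 bases before the listed start of S100A4, S100A6 and S100A3 are shown because the first had the largest difference of the 9 genes and the other two are cluster neighbours with a single listed start. They were taken from RefSeq (GRCh38.p14, minus strand, printed 5′ to 3′), and capitals mark a TATA box (TATAAA, searched on both strands). The windows are chr1:153545807-153546056 for S100A4, chr1:153535992-153536241 for S100A6 and chr1:153549259-153549508 for S100A3.
S100A4: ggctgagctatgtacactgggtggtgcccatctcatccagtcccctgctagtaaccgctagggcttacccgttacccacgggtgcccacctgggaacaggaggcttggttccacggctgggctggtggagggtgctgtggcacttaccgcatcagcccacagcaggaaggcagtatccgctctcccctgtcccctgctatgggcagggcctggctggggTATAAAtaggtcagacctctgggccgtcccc
S100A6: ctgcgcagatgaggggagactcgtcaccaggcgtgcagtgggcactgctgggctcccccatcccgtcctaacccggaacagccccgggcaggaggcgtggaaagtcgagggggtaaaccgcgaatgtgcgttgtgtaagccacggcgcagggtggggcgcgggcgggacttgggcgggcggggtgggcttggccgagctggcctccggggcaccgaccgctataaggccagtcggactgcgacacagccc
S100A3: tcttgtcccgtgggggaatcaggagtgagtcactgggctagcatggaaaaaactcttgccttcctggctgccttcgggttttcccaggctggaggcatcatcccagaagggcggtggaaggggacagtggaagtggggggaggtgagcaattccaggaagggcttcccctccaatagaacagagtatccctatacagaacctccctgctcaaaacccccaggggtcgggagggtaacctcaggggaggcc

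The S100A4 window held 1 match to TATAAA, beginning 31 bases before the start. The windows of S100A6 and S100A3 held 0, and 10.7% of 35116 human promoter windows of this length hold the match. RefSeq lists 14 start windows for the 9 genes, and 2 of them hold TATAAA, the one of S100A4 and one of S100A13. The S100A4 window carried 7 CpG dinucleotides and that of S100A3 carried 4, against a median of 11 over all windows, while that of S100A6 carried 24. Of further motifs searched on both strands, TGANTCA (AP-1) was found in 3 of the 14 windows, among them that of S100A3, against 6.57% of all windows. ACGTG, the core of the hypoxia response element, was found in 1 of 14, a window of S100A16, against 18.5% of all. CTTTGAT, a TCF/LEF motif, was found in 0 of 14, against 2.26% of all. These motifs do not overlap each other in the printed windows, and a match describes letters, not binding.

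The arrays were not alike in quality. For beta-actin, the 3′ minus 5′ signal, a sign of RNA integrity, was 3.43 log2 units in LM1 against 0.07 to 0.47 elsewhere. Over the genes tested, the median gap between replicates was 0.07 log2 units for LM2 and 0.28 for SN12C. The difference of LM2 from SN12C is therefore also given against each SN12C array for the 9 genes, and for other named genes where it depends strongly on the array. Renal and epithelial markers were bright: PAX8 lay between 9.19 and 9.82, KRT8 between 12.46 and 13.21, KRT18 between 14.04 and 14.72 and VIM between 13.97 and 14.37. PAX2 (6.34 to 6.46) and LHX1 (6.06 to 6.08) lay just above the filter value of 6.03, the 40th percentile of all values. Of 5 myeloid markers, PTPRC (4.99 to 5.36) and LYZ (5.22 to 5.25) lay below it on all 5 arrays, while ITGAM (6.999 to 7.18), CD14 (6.19 to 7.16) and CSF1R (7.14 to 7.31) lay above it on all 5. The mean over these 5 markers was 6.30 to 6.35 in LM2 and 6.22 to 6.33 in SN12C. Of 3 lung epithelial markers, SFTPB (7.71 to 9.04, highest in SN12C replicate 1) and SFTPC (8.05 to 8.29) lay above the filter value and SCGB1A1 (at most 5.14) below it. Of 2 endothelial markers, PECAM1 (7.07 to 7.65) lay above it and CDH5 (at most 4.93) below, and of 2 measured Schwann and melanocyte markers SOX10 (6.83 to 7.37) lay above it and MLANA (at most 5.73) below.

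S100A4 was higher in LM2 than in SN12C, with LM1 between them. Its log2 signal was 8.61 and 9.19 in SN12C, 10.74 in LM1 and 12.90 and 12.29 in LM2. Both LM2 arrays lay above the LM1 array, which lay above both SN12C arrays, and the lowest LM2 value exceeded the highest SN12C value by 3.10. The LM2 mean was 12.60 ± 0.43 and the SN12C mean 8.90 ± 0.41 (SD, n = 2 each), a difference of 3.70 ± 0.33 log2 units (SE from limma) or 12.96-fold. Of the 15024 genes tested, S100A4 had the 4th highest difference. Against SN12C replicate 1 alone the difference was 3.98, and against replicate 2 alone 3.41. The LM1 value stood 1.84 ± 0.41 above the SN12C mean (3.58-fold), and LM2 stood 1.85 ± 0.41 above LM1. S100A4 was read by 1 probe set, whose name ends in _s_at, a type that can also bind other transcripts, and no second probe set of this gene could be compared. RNA came from whole cultures, so more S100A4 RNA per cell and more cells that carry it cannot be told apart.

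**Figure D1:**
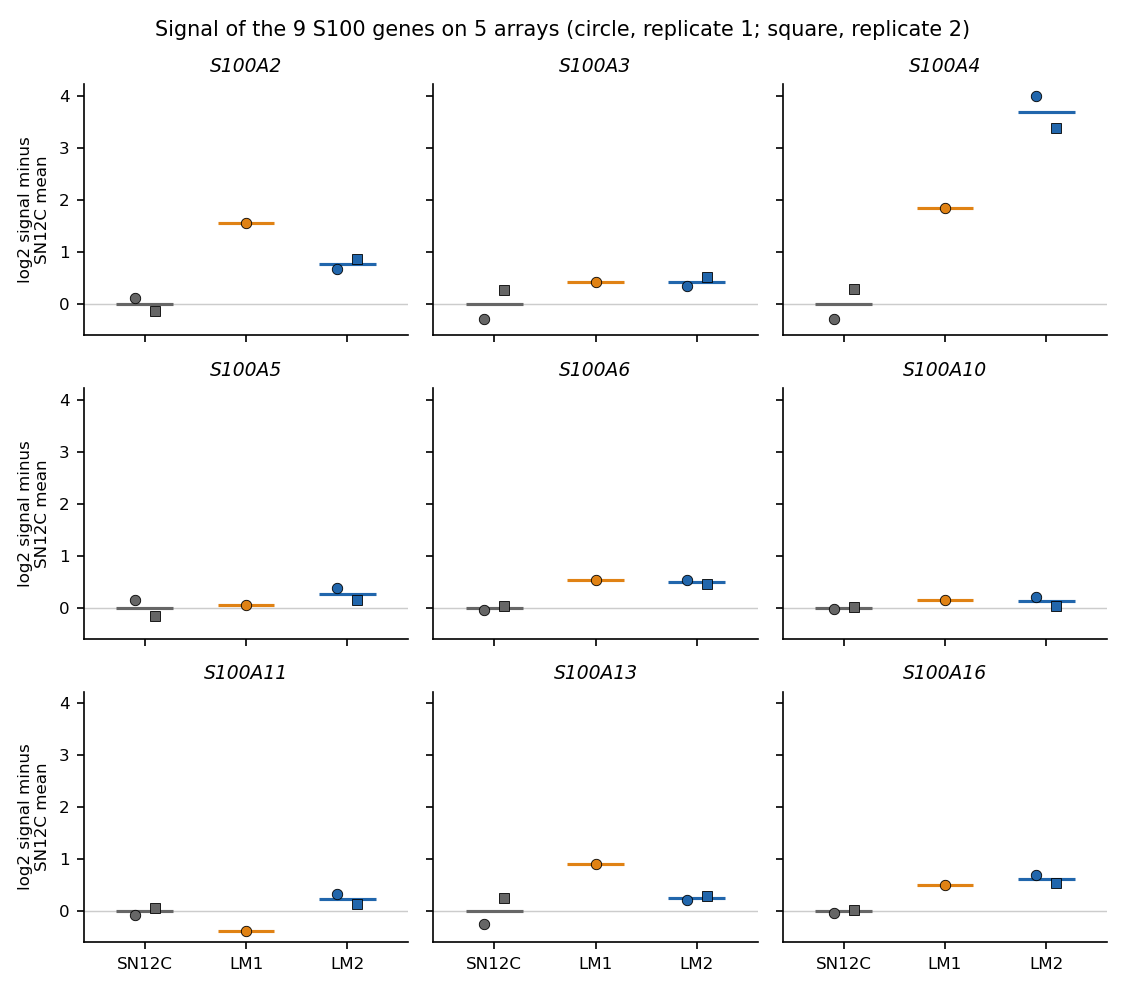
Log2 signal of each of the 9 S100 genes minus that gene's mean in SN12C (vertical axis, log2 units) in SN12C, LM1 and LM2; circles are replicate 1, squares replicate 2 and short lines the line means. S100A4 stands 1.84 above SN12C in LM1 and 3.70 in LM2, while the LM2 means of the other genes stand 0.12 to 0.77 above, and S100A2 and S100A13 are highest in LM1.

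The other 8 genes also had LM2 means above their SN12C means, but by far less. Their differences ran from 0.12 log2 units for S100A10 to 0.77 for S100A2, with a median of 0.35, against a median of 0.03 over all genes. The difference of S100A4 exceeded that of S100A2 by 2.93 and those of the remaining 7 genes by 3.07 to 3.57. Of the 9 genes, 7 had both LM2 arrays above both SN12C arrays, a separation that 25.3% of all genes showed. In 0 of the 9 did both LM2 arrays lie below both SN12C arrays, as they did for 14.1% of all genes. S100A4 was the only one of the 9 that also reached 1 log2 unit, as 1.7% of all genes did. Equal values on an LM2 and an SN12C array count as overlap. Many deposited values are identical between arrays, so ties can lower these shares of all genes, by an amount that was not computed. The genes share a locus, and calcium-binding paralogs of this kind were put on the list with these values known, so the counts are not read as evidence for the family.

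**Figure D2:**
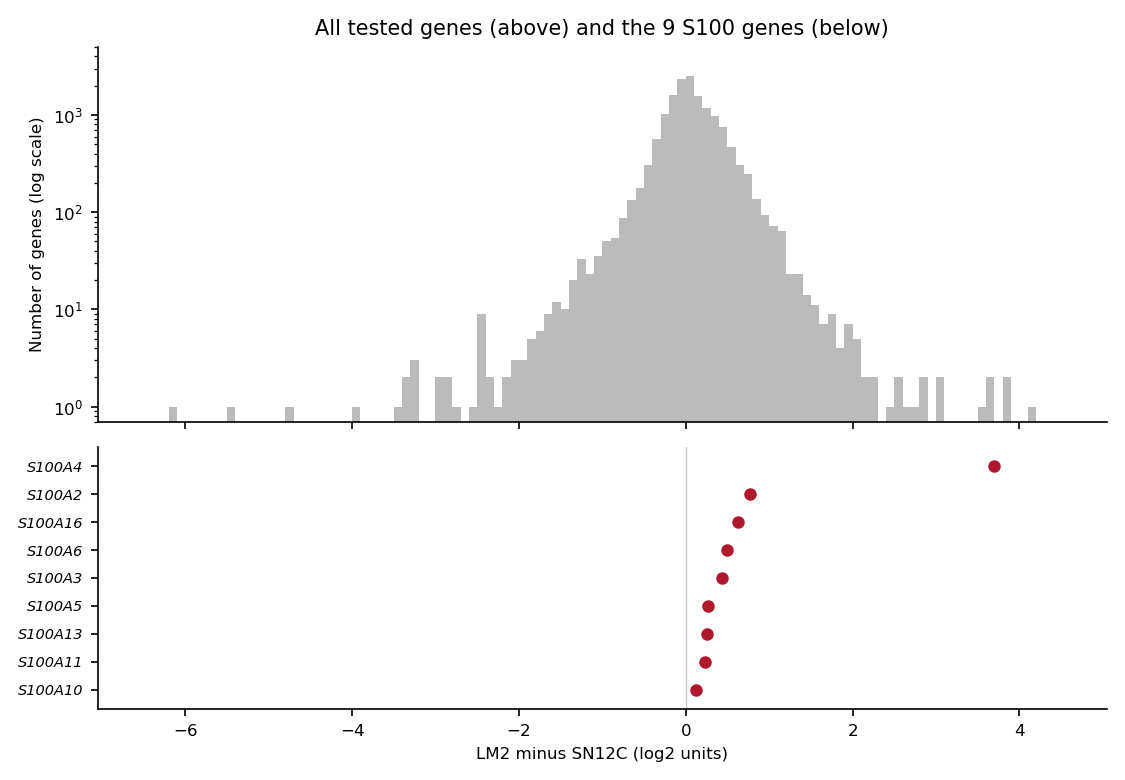
Number of tested genes (upper panel, log scale) by difference of LM2 minus SN12C in log2 units, and the difference of each of the 9 S100 genes on the same axis (lower panel). The S100A4 point at 3.70 lies in the sparse right end, and the other 8 points lie between 0.12 and 0.77.

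S100A2, S100A16 and S100A6, all from the stretch of the cluster around S100A4, came next. S100A2, which binds p53 and is known as a squamous and basal epithelial member, was at 9.13 and 8.88 in SN12C, 10.56 in LM1 and 9.67 and 9.88 in LM2. Its highest value was that of LM1, and both LM2 arrays lay above both SN12C arrays. The LM2 mean was 9.78 ± 0.14 and the SN12C mean 9.005 ± 0.17 (SD, n = 2 each), a difference of 0.77 ± 0.14 (SE) or 1.71-fold, with 0.65 against SN12C replicate 1 and 0.89 against replicate 2. LM1 stood 1.55 ± 0.17 above SN12C, and LM2 stood at -0.78 ± 0.17 from LM1, so the order of the lines differed from that of S100A4. This order rests on the single LM1 array with the high 3′ minus 5′ signal. Both LM2 arrays lay below LM1 for 51.9% of all genes.

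S100A16, a widely expressed member, was at 11.98 and 12.04 in SN12C, 12.51 in LM1 and 12.71 and 12.55 in LM2. The lines were in the order seen for S100A4, though the lower LM2 array lay only 0.04 above LM1. The LM2 mean was 12.63 ± 0.12 and the SN12C mean 12.01 ± 0.04 (SD, n = 2 each), a difference of 0.62 ± 0.10 (SE) or 1.54-fold, with 0.65 against SN12C replicate 1 and 0.59 against replicate 2. S100A4 and S100A16 were the 2 of 9 genes with LM1 above both SN12C arrays and below both LM2 arrays, an order that 3.33% of all genes showed.

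S100A6, calcyclin, which binds the ubiquitin ligase adaptor CACYBP, was at 12.88 and 12.95 in SN12C, 13.44 in LM1 and 13.45 and 13.37 in LM2. The LM1 value lay between the LM2 replicates, and all 3 lay above both SN12C arrays. The difference of LM2 from SN12C was 0.50 ± 0.08 (SE), or 1.41-fold, with 0.53 against SN12C replicate 1 and 0.46 against replicate 2, and that of LM1 from SN12C was 0.53 ± 0.10. A second, dimmer probe set of S100A6 read 6.75 and 6.69 in SN12C, 7.31 in LM1 and 6.96 and 6.91 in LM2. It also had LM2 above SN12C, by 0.22, but put LM1 above both LM2 arrays.

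The genes directly beside S100A4 had much smaller differences between LM2 and SN12C than S100A4. S100A3, a zinc- and calcium-binding member known from the hair cuticle, was at 7.35 and 7.91 in SN12C, 8.05 in LM1 and 7.97 and 8.16 in LM2. The lowest LM2 value exceeded the highest SN12C value by 0.06. Its difference was 0.44 ± 0.24 (SE), above that of 87.0% of all tested genes, and it was 0.72 against SN12C replicate 1 and 0.16 against replicate 2. S100A5, the neighbour on the other side, was at 7.23 and 6.91 in SN12C, 7.12 in LM1 and 7.45 and 7.22 in LM2. The LM2 and SN12C arrays overlapped, with a difference of 0.26 ± 0.17 (SE), which was 0.10 against SN12C replicate 1 and 0.42 against replicate 2. The S100A5 values lay not far above the filter value, so the size of this difference is uncertain.

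S100A13, which takes part in the release of FGF1 and IL1A from cells, was at 10.11 and 10.61 in SN12C, 11.27 in LM1 and 10.58 and 10.65 in LM2. The LM1 value was the highest of the 5, and LM2 and SN12C overlapped. LM1 stood 0.91 ± 0.26 (SE) above SN12C, while LM2 stood 0.26 ± 0.21 above it, 0.51 against SN12C replicate 1 and 0.01 against replicate 2. A second, dimmer probe set of S100A13 read 6.72 and 6.82 in SN12C, 6.81 in LM1 and 6.81 and 6.99 in LM2, and did not place LM1 above the other arrays.

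S100A10 and S100A11, the annexin-binding members at the near end of the region, had the smallest differences between LM2 and SN12C of the 9 genes. S100A10, also called p11, is the partner of annexin A2 and has lost calcium binding. It was at 13.43 and 13.46 in SN12C, 13.61 in LM1 and 13.66 and 13.48 in LM2, a difference between LM2 and SN12C of 0.12 ± 0.10 (SE) with 0.03 between the nearest arrays. It was 0.14 against SN12C replicate 1 and 0.11 against replicate 2. A second probe set of S100A10 overlapped between LM2 (8.52 and 8.31) and SN12C (7.93 and 8.37). S100A11, a partner of annexin A1, was at 11.86 and 11.99 in SN12C, 11.55 in LM1 and 12.25 and 12.06 in LM2. It was the 1 gene of the 9 whose LM1 value lay below both SN12C arrays, by 0.38 ± 0.14 (SE) from their mean, while LM2 lay above them by 0.23 ± 0.11, with 0.29 against SN12C replicate 1 and 0.17 against replicate 2.

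In generation 1 the picture was mixed. The LM1 array lay above both SN12C arrays for 7 of the 9 genes, all except S100A5 and S100A11. Over all genes 45.2% lay above and 20.8% below, so the members' count is to be read against a high background, from a single array with the 3′ to 5′ ratio given above, whose part in these values was not tested. The differences of LM1 from SN12C had a median of 0.50 over the 9 genes and 0.09 over all genes. LM2 set against LM1 split the genes: both LM2 arrays lay above LM1 for S100A4, S100A5, S100A11 and S100A16 (27.0% of all genes), and both lay below it for S100A2 and S100A13 (51.9% of all genes). S100A4 stood 1.85 above LM1 in LM2, and the next was S100A11 at 0.61 ± 0.14 (SE). The comparisons with SN12C share its 2 arrays, and those with LM1 share its 1 array.

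Across all genes, limma with 1 mean per line called 0 of 15024 genes at an adjusted p of 0.05 in each comparison (0.0%). The lowest adjusted p values were 0.225 for LM2 against SN12C, 0.0964 for LM1 against SN12C and 0.178 for LM2 against LM1. At an unadjusted p of 0.05 there were 1737, 3325 and 2555 genes in these comparisons. None of the 9 genes was thus among genes called in any comparison, S100A4 included, though no test is read from these genes. With 2 arrays against 2 the smallest two-sided p that an exact permutation test allows is 0.333, a floor that does not apply to limma.

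The other genes of the locus had no difference near the size of that of S100A4. The 33 tested genes that are not S100 genes, from 10 genes before S100A10 to 10 after S100A1, had a median difference between LM2 and SN12C of 0.07, against 0.03 over all genes. Both LM2 arrays lay above both SN12C arrays for 10 of them (30.3%) and below for 1 (3.03%), beside 25.3% and 14.1% of all genes, and limma called 0 (1 at an unadjusted p of 0.05). The lowest differences were those of PGLYRP4, a peptidoglycan recognition protein, at -0.42 ± 0.37 (SE), LCE1E, a cornified envelope protein, at -0.41 ± 0.44, and THEM4, a thioesterase, at -0.38 ± 0.22. They rested mostly on SN12C replicate 1. PGLYRP4 stood at -0.87 against that array and at 0.03 against replicate 2, LCE1E at -0.96 and 0.14, and THEM4 at -0.65 and -0.11. The highest were those of CCDST at 0.46 ± 0.16, SNAPIN, a SNARE-associated protein, at 0.45 ± 0.25, and INTS3, an Integrator subunit, at 0.34 ± 0.27. Against SN12C replicate 1 and replicate 2 in turn, SNAPIN stood at 0.76 and 0.14, INTS3 at 0.67 and 0, and CCDST at 0.27 and 0.64. The 13 genes between S100A10 and S100A1, mostly genes of the skin barrier, had a median of -0.11 with 3 separated upward (23.1%). Several of them lay not far above the filter value on every array, such as LORICRIN (6.18 to 6.36), LCE3D (6.08 to 6.54) and SPRR3 (6.37 to 6.74). The brightest were SPRR4 (8.44 to 9.13) and LCE1E (7.44 to 8.54). Small or downward differences of the dim genes may not be seen, which limits what the medians say about the locus. The 10 genes after S100A1 had a median of 0.24 with 6 separated upward (60%), and the 10 before S100A10 had a median of 0.02 with 1 separated upward (10%).

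**Figure D3:**
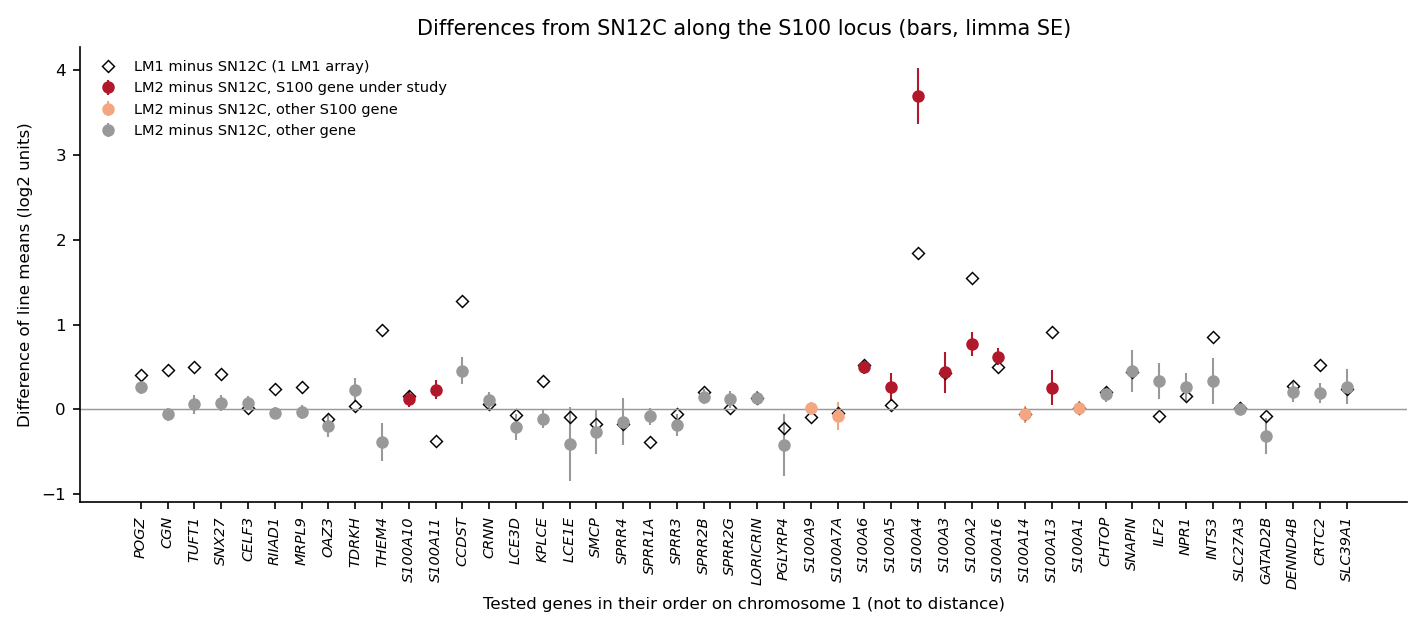
Difference of line means in log2 units for 46 tested genes in their order on chromosome 1; filled points with SE bars are LM2 minus SN12C (red, the 9 S100 genes; pale orange, other S100 genes; grey, other genes) and open diamonds LM1 minus SN12C. S100A4 at 3.70 stands alone above its neighbours, which lie between -0.42 and 0.77 in LM2, and the open diamonds above 1 belong to S100A4, S100A2 and CCDST.

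S100 genes outside the list were dim and differed little. For comparison, 18 further S100 and fused-type genes (large skin proteins with an S100 domain) were chosen with earlier results of these data known. Of these, 5 passed the filter on low values: S100A1, S100A7A, S100A9, S100A14 and CRNN. The others lay below it or were not named by the platform table. The differences of the 5 between LM2 and SN12C ran from -0.08 to 0.11, and 0 of 5 separated the arrays in either direction. The alarmins S100A8 (at most 5.28) and S100A12 (at most 4.73), which neutrophils carry in bulk, and S100P (at most 5.22), S100B and S100G lay below the filter value on all 5 arrays. S100A9, the dimer partner of S100A8, lay between 6.03 and 6.15, at the filter value.

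Partners and receptors of S100 proteins differed in both directions. Of 27 such genes chosen for comparison, with earlier results of these data known, 26 were tested. Their median difference between LM2 and SN12C was 0.05. Both LM2 arrays lay above both SN12C arrays for 8 and below for 4, shares of 30.8% and 15.4% beside the 25.3% and 14.1% of all genes, and limma called 0 (5 at an unadjusted p of 0.05). MYH9, the heavy chain of the non-muscle myosin that S100A4 binds best, differed by 0.08 ± 0.15 (SE), with -0.05 against SN12C replicate 1 and 0.22 against replicate 2. MYH10, the heavy chain of a related non-muscle myosin, was at 11.85 and 11.84 in LM2, against 11.22 and 11.31 in SN12C, 0.58 ± 0.08 higher.

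Among proteins whose export involves S100A13, FGF1 was at 9.09 and 8.94 in LM2, against 7.41 and 7.35 in SN12C, 1.63 ± 0.09 (SE) higher (limma adjusted p = 0.225). IL1A was at 5.64 on both LM2 arrays, below the filter value, against 9.51 and 6.59 in SN12C, a difference of -2.42 ± 1.14, which was -3.88 against SN12C replicate 1 and -0.95 against replicate 2. SYT1, a part of the same export complex with FGF1, differed by -0.66 ± 0.26, with -0.98 against SN12C replicate 1 and -0.35 against replicate 2. The plasminogen activators, whose surface activity S100A10 supports, differed in opposite directions: PLAT was 1.35 ± 0.38 higher in LM2 (0.86 and 1.83 against SN12C replicates 1 and 2), and PLAU stood at -0.76 ± 0.14. The annexins partnered with S100A10 and S100A11 differed by 0.09 ± 0.07 (ANXA2) and 0.34 ± 0.10 (ANXA1). The receptor AGER averaged 6.41 in LM2 and 6.43 in SN12C, and TLR4 6.47 in LM2 and 6.41 in SN12C, both close to the filter value.

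Few genes shared the pattern of S100A4 at its size. Likeness was measured as the root mean square difference over the 5 arrays after each gene was centred on its own mean. The closest of 15023 genes were SLC38A4, an amino acid transporter (0.40 log2 units), COL11A1 (0.51), SHISA9, an AMPA receptor accessory protein (0.61), COL3A1 (0.63) and FAM133A (0.64). COL11A1 and COL3A1 encode fibrillar collagen chains. The difference of LM2 from SN12C for COL3A1 depended strongly on the SN12C array, at 4.04 against replicate 1 and 2.05 against replicate 2. SLC38A4 was at 4.08 and 4.44 in SN12C, 6.07 in LM1 and 7.24 and 7.33 in LM2. COL11A1 was at 5.42 and 5.79 in SN12C, 8.73 in LM1 and 9.79 and 9.74 in LM2. The SN12C values of both genes lie below the filter value, which they passed through the other lines, so the size of their differences from SN12C is uncertain. SHISA9 (6.51 and 7.01) and FAM133A (6.26 and 7.18) had SN12C values not far above the filter value. The LM1 value of FAM133A (10.19) lay above that of LM2 replicate 2 (10.09), unlike S100A4. Among S100 genes the closest was S100A16 at 1.39, in place 759, against a median of 1.67 over all genes compared. The likeness is a description of 5 arrays, which share lines and normalization.

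**Figure D4:**
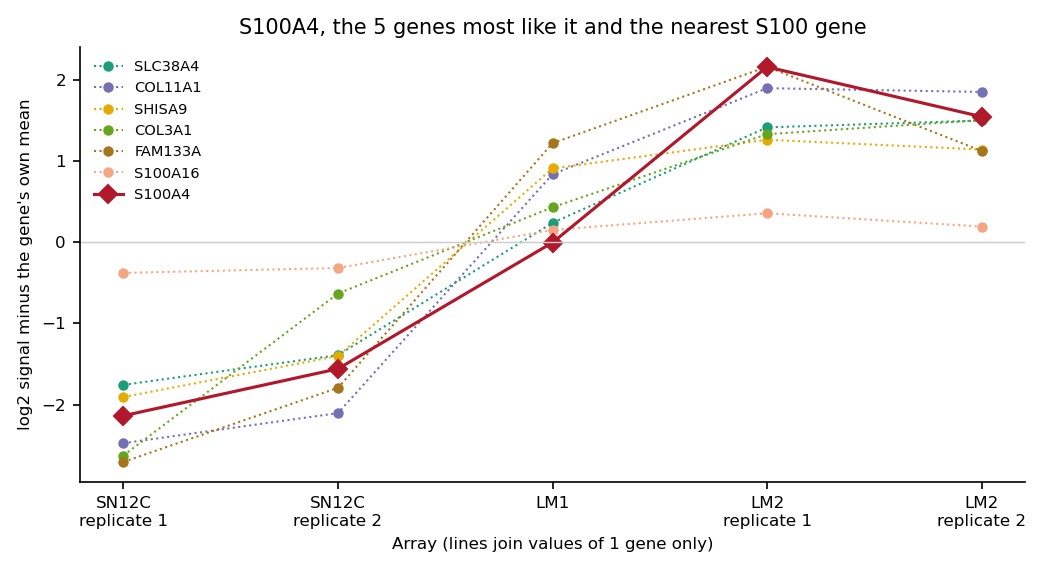
Log2 signal minus each gene's own mean (vertical axis, log2 units) on the 5 arrays, for S100A4 (solid line), the 5 genes most like it and S100A16, the nearest S100 gene (dotted lines). Between the SN12C and LM2 means the lines of S100A4, SHISA9, COL3A1 and FAM133A climb by 2.85 to 3.89 log2 units and that of S100A16 by 0.62, while those of SLC38A4 and COL11A1 start from SN12C values below the filter value. For COL3A1 the climb to the LM2 mean is 4.04 from SN12C replicate 1 and 2.05 from replicate 2.

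S100A4 is also a fibroblast marker, and the 4 fibroblast markers chosen for comparison, with earlier results of these data known, had no common direction. Their mean signal was 6.48 and 7.09 on the SN12C arrays, 7.46 in LM1 and 7.58 to 7.60 in LM2. LUM lay below the filter value on all 5 arrays (at most 4.37), and DCN lay between 6.89 and 7.34 with its highest value in SN12C replicate 1. PDGFRB was at 8.20 and 8.19 in LM2, inside its SN12C values of 7.49 and 8.41. COL3A1 was at 10.94 and 11.11 in LM2, against 6.98 and 8.98 in SN12C. The part of other cell types in the S100A4 values was not tested beyond these levels.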

How the data were processed

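Expression of 3 renal cell carcinoma lines was measured on 5 Affymetrix arrays. The values deposited by the authors are log2 signals, 1 for each probe set on each array. They were made with RMA and Partek per the submitters' processing notes; versions are not given in the sources used here. RMA quantile normalizes arrays, which is meant to even out total signal. The deposited arrays still differed in spread, with an SD of 2.11 in SN12C replicate 1 against 2.22 to 2.25 on the others. Their medians ran from 6.51 in LM1 to 6.57 in SN12C replicate 1. The values were used as they stand.

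Of 54675 probe sets, 62 controls were left out. The platform table gives 41091 of the rest 1 gene. Each of 19775 genes was represented by its brightest probe set on average, and 15024 genes with at least 2 arrays at or above the 40th percentile of all values, 6.03, were tested. A mean for each line was fitted to the 5 arrays together (limma 3.58.1, lmFit and eBayes, R 4.3.3), with Benjamini-Hochberg adjustment over all genes and 2 residual and 1.3 prior degrees of freedom. LM1 has 1 array and is assumed to vary like the others. The code was tested on simulated data.

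Many deposited values are identical between arrays (2129 tested genes in both LM2 arrays, 714 in both SN12C arrays), which shrinks estimated spreads, and 0 of the 9 S100 genes had such a tie. Gene names and order came from a table of assembly GRCh38.p14. Promoter windows came from RefSeq. Figures used matplotlib 3.10.9.

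The S100 genes, the comparison lists and the motifs were chosen with earlier results of these data known. Named were all 9 genes, up to 6 partners with separated arrays at least 0.5 log2 units apart (MYH9, ANXA1, ANXA2, AGER and TLR4 were added after their values were seen), the 3 highest and 3 lowest neighbours of the locus and the 5 genes most like S100A4. Alternatives changed the filter, choice of probe sets, normalization, eBayes options, the arrays in the fit, a replicate block and the width of the locus. The number of arrays limits the precision.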

Additional observations from a re-analysis of the deposited data

How the results depend on the processing

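Across 17 alternatives the difference of LM2 from SN12C was above 0 for every one of the 9 genes wherever it was measured (134 of 134 values). Many of these values only repeat the main ones. Changing the filter or the eBayes options, leaving out LM1 or adding the replicate block cannot alter a difference of these line means. For the 7 genes with both LM2 arrays above both SN12C arrays, leaving out a replicate cannot change the sign either. S100A4 kept 3.39 to 4.002 log2 units with each replicate left out in turn, and its LM1 difference 1.55 to 2.13. Leaving out the _x_at and _s_at probe sets removes its value, since its probe set is of that type. Of 366 alternative values of single members over the comparisons, 9 moved by more than 1 SD, pooled from the gene's SN12C and LM2 replicate pairs. Leaving out a replicate shifts a line mean by at most this SD, so such settings could not add to the 9. The count is therefore no measure of how much the values depend on single arrays. Quantile normalizing the deposited values again lowered the difference of LM2 from SN12C in all 9 genes. S100A2 went from 0.77 to 0.60, S100A16 from 0.62 to 0.53 and S100A6 from 0.50 to 0.43. S100A11 went from 0.23 to 0.12, S100A13 from 0.26 to 0.11 and S100A4 from 3.70 to 3.58. The number of genes of the 9 with LM2 arrays above SN12C arrays was 7, and 6 to 8 in the alternatives. With each probe set as its own feature the count of 8 is over 12 probe sets. Without the _x_at and _s_at probe sets the count of 6 leaves out S100A4. With a replicate left out the count was 8, because fewer arrays are compared, which makes separation easier for all genes too. The share of all genes was not computed for the alternatives, so these counts have no background beside them. The count was 0 in the other direction throughout. The median of the members' differences was 0.44, 0.38 to 0.53 with a replicate left out, and 0.27 with all 12 probe sets as separate features, which adds dimmer probe sets. The median of the genes at the locus was 0.07, 0.03 to 0.07 with a replicate left out, and -0.11 with the flanking genes left out.

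Over all genes limma called 0 in each comparison under every setting that kept both SN12C arrays. With 1 SN12C array the spread comes from the LM2 pair alone. The counts of calls ranged from 0 to 3824 for LM2 against SN12C, from 0 to 4823 for LM1 against SN12C and from 0 to 1273 for LM2 against LM1. Without SN12C replicate 2 the counts were 3824, 4823 and 1273, and without replicate 1 they were 0, 1979 and 1273. SN12C and LM2 share replicate numbers, but nothing says that a number marks a shared day or culture, and deviations of same-numbered arrays correlated at 0.09 across genes. With the replicate block, fitted without LM1, 0 genes were called. SN12C and LM2 each have both replicates, so the block cannot change the difference of S100A4, which is 3.70 there by design.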
